A study of Mus musculus with 15 samples.

Results

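The genes described here are 7 components of the Wnt and beta-catenin pathway, Ctnnb1, Apc, Axin1, Axin2, Gsk3b, Lef1 and Tcf7l2. They were chosen by name, as the array probes whose gene name equals one of these symbols. All 7 had probes, 18 in all, among 19948 autosomal gene names on the array. Each gene lies on a different autosome. Array comparative genomic hybridization (aCGH) measured how much DNA of each locus a tissue held relative to a reference DNA, so every level given here is a DNA copy-number level and none is a level of RNA or protein.

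Tissue came from 5 liver tumours, hepatocellular carcinomas (HCC), and from 3 unaffected livers of the same 3 mice, in which Cre recombinase, driven by the Albumin promoter, deleted floxed Mad2l1, a spindle checkpoint gene, and floxed Trp53, the gene of the p53 tumour suppressor. Mouse 3151 was a female of 16.4 months with the genotype Mad2(f/f) p53(f/+) and gave HCC 1, HCC 2 and liver 1. Mouse 3760 was a male of 13.8 months with the genotype Mad2(f/f) p53(f/f) and gave HCC 3 and liver 2. Mouse 4033 was a male of 13.9 months with that same genotype and gave HCC 4, HCC 5 and liver 3. The unaffected livers therefore carried the floxed alleles and Cre as well, and the reference was wild-type liver DNA from an animal of the opposite sex. The Albumin promoter is active in hepatocytes, so stromal, endothelial and immune cells of each tissue keep both genes. Tissue DNA averages all cells of a piece, and fewer cells with a change and a smaller change per cell cannot be told apart. Tumours of 1 mouse share that mouse, so p-values over the 8 tissues measure the spread between these tissues and treat tumours of 1 mouse as separate samples.

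In canonical Wnt signalling, secreted Wnt ligands bind Frizzled receptors and their LRP co-receptors, and the signal stops a destruction complex from marking beta-catenin for degradation. Axin and Apc are the scaffolds of that complex and Gsk3b is a kinase in it. Stabilised beta-catenin enters the nucleus and drives transcription with the Lef and Tcf factors. The pathway sets the pericentral gene programme of hepatocytes, and mutations that stabilise beta-catenin or disable Axin or Apc are known in human HCC.

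Each probe carries a DNA sequence of up to 60 bases. The sequences below are those of the member probes that read farthest from their flanking probes in any tissue, outside Apc, with the other probes of Tcf7l2 and Gsk3b for comparison and 1 Wnt8b probe, so that the probe behind each such value can be identified. Capitals mark the longest run of a single base, and all sequences were copied from the deposited array files. Coordinates are those of the array design, whose build is not stated in the sources used here, and whether a probe lies in an exon or an intron was not analysed here.
Tcf7l2 probe A_53_P120797, chr19:55901084-55901143: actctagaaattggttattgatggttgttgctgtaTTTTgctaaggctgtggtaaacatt
Tcf7l2 probe A_53_P158307, chr19:55923008-55923067: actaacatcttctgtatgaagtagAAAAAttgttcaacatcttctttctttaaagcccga
Tcf7l2 probe A_53_P137295, chr19:55956912-55956971: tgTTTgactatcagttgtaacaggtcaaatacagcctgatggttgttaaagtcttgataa
Gsk3b probe A_53_P130011, chr16:38107131-38107190: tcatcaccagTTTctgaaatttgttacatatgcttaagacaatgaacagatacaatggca
Gsk3b probe A_53_P159285, chr16:38144412-38144470: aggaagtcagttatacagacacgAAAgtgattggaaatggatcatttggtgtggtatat
Ctnnb1 probe A_53_P141202, chr9:120848314-120848373: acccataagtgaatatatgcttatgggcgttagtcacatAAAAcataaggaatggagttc
Axin2 probe A_53_P118573, chr11:108810982-108811041: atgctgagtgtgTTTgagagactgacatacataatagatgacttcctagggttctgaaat
Wnt8b probe A_53_P122423, chr19:44570451-44570510: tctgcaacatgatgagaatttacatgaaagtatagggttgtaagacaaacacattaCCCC
The G and C content of the 3 Tcf7l2 probes was 35%, 31.7% and 35% in that order, that of the Gsk3b probes 33.3% and 37.3%, that of the Ctnnb1 probe 36.7%, that of the Axin2 probe 38.3%, and that of the Wnt8b probe 36.7%.

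A level is the mean over the probes of a gene of log2 of tissue over reference, centred on each array's autosomal median and averaged over both dye orientations. A level of 0.3 or more is called a gain and one of -0.3 or less a loss, the cut-off the study used for chromosomes. HCC 3 was hybridised in 1 orientation only. The noise of 1 probe, from differences between neighbouring probes, lay between 0.08 and 0.20 in the 8 tissues. Of the engineered genes, Trp53 (1 probe) read -1.06, -1.14, -0.19, -2.07 and -2.03 in HCC 1 to 5, against -0.07, -0.88 and -0.72 in livers 1 to 3. Mad2l1 (1 probe) read -1.22, -0.71, 0.08, 0.53 and 0.59 in the same 5 tumours, and between 0.01 and 0.69 in the livers. Mad2l1 thus lay below 0 only in HCC 1 and HCC 2, and in HCC 3, from a mouse labelled with both floxed alleles of both genes, neither gene read below -0.19. Whether either probe lies inside its floxed segment was not analysed here.

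Taken over all 7 genes, copy number moved with the chromosome that carries the gene. Apc and Gsk3b lay higher in HCC than in liver, Lef1 and Axin1 lay lower, and Ctnnb1, Axin2 and Tcf7l2 had mean differences within 0.09 of 0. No member passed the exact permutation test, and no member level lay 0.3 or more from the median of its chromosome in any of the 8 tissues. Member levels past the cut-off made 5 gains among 35 gene and tumour pairs (14.3%), against 18.1% of the pairs of all autosomal gene names, and 5 losses (14.3%), against 18.7%. With each array centred on the mode of its probes in place of the median there were 5 gains and 8 losses, against 13.0% and 24.7% of the pairs of all gene names. In the 3 livers no member passed the cut-off, against 4.23% of the liver values of all gene names.

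**Figure D1:**
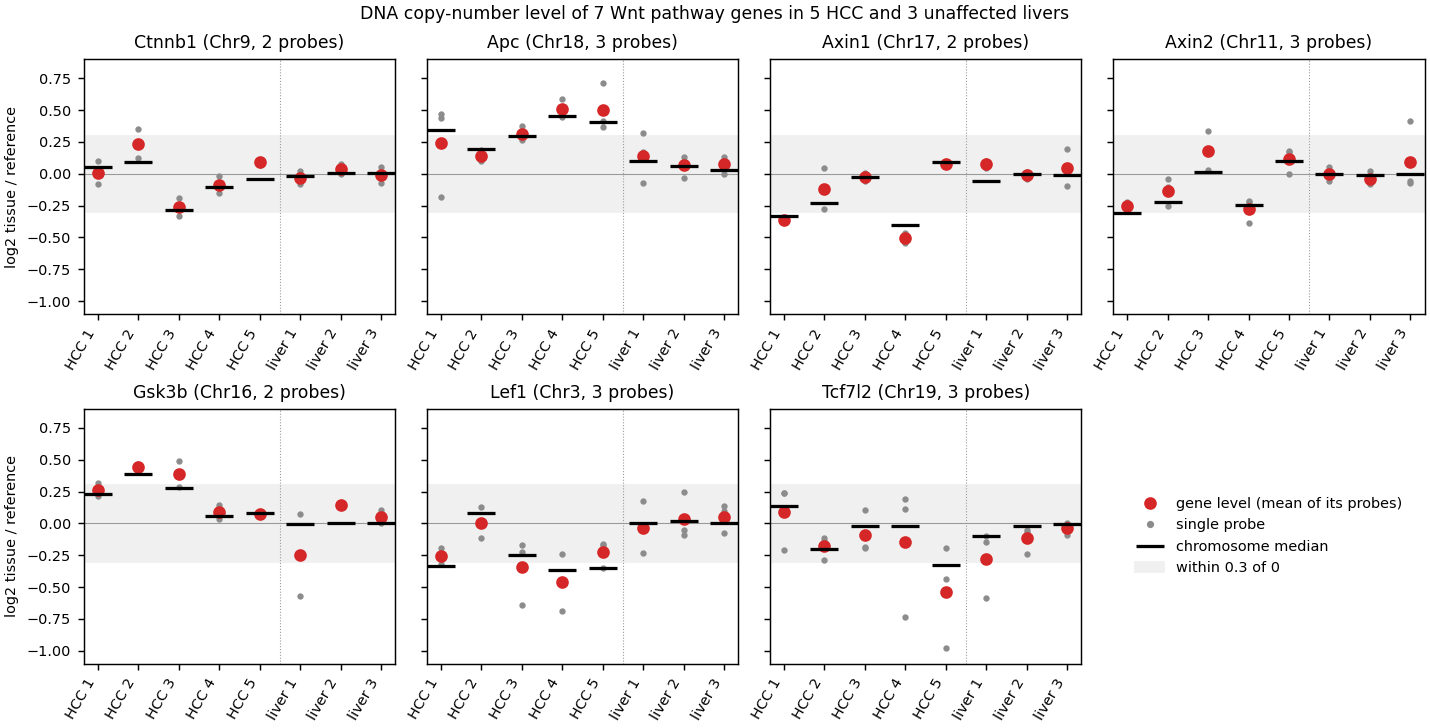
DNA copy-number level (log2 tissue over reference, vertical axis) of the 7 genes in 5 HCC and 3 unaffected livers (horizontal axis). Red points are gene levels, grey points single probes, black bars the median of the gene's chromosome, and the band spans 0.3 on either side of 0. The red points lie near the black bars in most tissues, and the farthest is Gsk3b in liver 1, 0.25 below its bar.

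Apc, the large scaffold of the destruction complex and a tumour suppressor, lies on Chr18. Its level was 0.24, 0.14, 0.32, 0.51 and 0.50 in HCC 1 to 5, and 0.14, 0.07 and 0.08 in livers 1 to 3. It was a gain in the 3 tumours of the male mice (in 2 of them with centring on the mode), as for 9.64% of all gene names with gains in at least 3 tumours, and 4 of 5 tumours lay above every liver while HCC 2 fell between liver 3 and liver 1. The tumours averaged 0.34 ± 0.16 (SD, n = 5) and the livers 0.10 ± 0.04 (SD, n = 3), a difference of 0.25 (exact permutation test, two-sided p = 0.0714, 0.539 after Benjamini-Hochberg adjustment over all autosomal gene names). The smallest p the 56 splits of the tissues allow is 0.0179, so an adjusted p under 0.05 would need a large share of all gene names at that value. Scan day 1 held HCC 1, HCC 2, HCC 4 and liver 1, and scan day 2 held HCC 3, HCC 5, liver 2 and liver 3. Differences within scan day 1 therefore rest on 1 liver. Within scan day 1 the difference was 0.16 and within scan day 2 it was 0.33.

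The median of all 1212 Chr18 probes read 0.34, 0.19, 0.29, 0.45 and 0.41 in HCC 1 to 5 and between 0.03 and 0.10 in the livers. All 5 tumours lay above all livers for this chromosome. The tumours lay all above or all below the livers for 21.1% of the 19 autosomes. Relative to Chr18, Apc differed between HCC and liver by -0.03 (exact permutation p = 0.571). In HCC 1 the 3 Apc probes disagreed. The first probe read -0.19 and the others 0.47 and 0.44, and the first probe was low in both dye orientations (-0.30 and -0.07). Without that probe, a choice made after its values were seen, the level of Apc in HCC 1 was 0.45. The difference between groups was then 0.31 (exact permutation p = 0.0357), the highest with 1 Apc probe left out. The lowest was 0.17 (exact permutation p = 0.214). The highest Apc probe value of any array, 0.95 in the forward orientation of HCC 4, came from a spot with 1 channel not well above background, and the dye-swap array gave 0.05 for that probe. It was the single such channel among the 270 readings of member probes.

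Gsk3b, the kinase that phosphorylates beta-catenin in the complex, lies on Chr16 with probes spanning chr16:38107131-38144470. Its level was 0.26, 0.44, 0.39, 0.09 and 0.08 in HCC 1 to 5, and -0.25, 0.14 and 0.05 in livers 1 to 3. HCC 1 to HCC 3 lay above every liver, and HCC 4 and HCC 5 lay between liver 3 and liver 2. The tumours averaged 0.25 ± 0.17 (SD, n = 5) and the livers -0.02 ± 0.21 (SD, n = 3), a difference of 0.27 (exact permutation p = 0.107, adjusted p = 0.595). It was 0.51 within scan day 1, where liver 1 with its low value is the only liver, and 0.13 within scan day 2.

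The Chr16 median read 0.23, 0.39, 0.28, 0.05 and 0.08 in the tumours and lay within 0.0021 of 0 in every liver, all 5 tumours above every liver, and the tumours with a high Gsk3b level were those with a high Chr16. The low Gsk3b value of liver 1 came from probe A_53_P130011, which read -1.17 in the forward and 0.02 in the dye-swap orientation, while probe A_53_P159285 read 0.08 in that liver. Without A_53_P130011 the difference between groups was 0.14. Without liver 1 it was 0.15, and relative to Chr16 it turned from 0.06 to -0.05.

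Axin1, the limiting scaffold of the complex in many cell types, lies on Chr17 with probes from chr17:26290710-26331908. Its level was -0.36, -0.12, -0.02, -0.51 and 0.08 in HCC 1 to 5, against 0.07, -0.01 and 0.05 in livers 1 to 3. HCC 1 and HCC 4 carried losses, HCC 2 and HCC 3 lay just below every liver, and HCC 5 lay just above them. The difference between groups was -0.22 (HCC -0.19 ± 0.24, SD, n = 5, liver 0.04 ± 0.04, SD, n = 3, exact permutation p = 0.196, adjusted p = 0.702). It was -0.40 within scan day 1 and 0.01 within scan day 2, and -0.14 without HCC 4. Both probes of Axin1 lay below -0.35 in HCC 1 and HCC 4, and the Chr17 median was -0.33 and -0.40 there. In HCC 2 the probes read 0.04 and -0.28.

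Axin2, a homologue of Axin1 and a well known transcriptional target of beta-catenin, lies on Chr11 with probes from chr11:108787453-108811041. Its level was -0.26, -0.13, 0.18, -0.28 and 0.11 in HCC 1 to 5, against -0.00040, -0.04 and 0.09 in livers 1 to 3. HCC 1, HCC 2 and HCC 4 lay below every liver, HCC 3 and HCC 5 above. The means differed by -0.09 (HCC -0.07 ± 0.21, SD, n = 5, liver 0.02 ± 0.07, SD, n = 3, exact permutation p = 0.5, adjusted p = 0.882), by -0.22 within scan day 1 and by 0.12 within scan day 2. Leaving out 1 tissue moved this difference to -0.04 without HCC 1 or HCC 4, -0.05 without liver 3, -0.15 without HCC 3 and -0.14 without HCC 5. The Chr11 median split the tumours in the same way, with -0.31, -0.22 and -0.25 in HCC 1, HCC 2 and HCC 4, 0.01 in HCC 3 and 0.10 in HCC 5. Axin1 and Axin2 were both below every liver in HCC 1, HCC 2 and HCC 4, and both above in HCC 5.

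Ctnnb1, which encodes beta-catenin itself, lies on Chr9 with probes from chr9:120848314-120860206. Its level was 0.01, 0.23, -0.26, -0.08 and 0.09 in HCC 1 to 5, and -0.03, 0.04 and -0.01 in livers 1 to 3. No tumour reached the cut-off. HCC 2 and HCC 5 lay above every liver and HCC 3 and HCC 4 below. The means differed by -0.0019 (HCC -0.0024 ± 0.19, SD, n = 5, liver -0.00050 ± 0.03, SD, n = 3, exact permutation p = 0.982, adjusted p = 0.999), by 0.08 within scan day 1 and by -0.10 within scan day 2. The low value of HCC 3 went with a Chr9 median of -0.29, and the high value of HCC 2 rested on probe A_53_P141202, which read 0.35, beside another of 0.12 and a Chr9 median of 0.09.

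Lef1, a nuclear partner of beta-catenin, lies on Chr3 with probes from chr3:130848710-130901594. Its level was -0.26, 0.0037, -0.35, -0.46 and -0.23 in HCC 1 to 5, against -0.03, 0.04 and 0.05 in livers 1 to 3. All tumours but HCC 2 lay below every liver, and HCC 3 and HCC 4 carried losses. The tumours averaged -0.26 ± 0.17 (SD, n = 5) and the livers 0.02 ± 0.05 (SD, n = 3), a difference of -0.28 (exact permutation p = 0.0714, adjusted p = 0.539). It was -0.21 within scan day 1 and -0.33 within scan day 2. Without HCC 2, the tumour whose level lay among the livers, it was -0.34.

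The Chr3 median was -0.33, -0.25, -0.36 and -0.35 in the tumours with low Lef1 and 0.08 in HCC 2, and relative to it Lef1 differed by -0.03 between HCC and liver (exact permutation p = 0.714). The Lef1 probes differed in size. The middle probe, A_53_P158662, read between -0.24 and -0.12 in every tumour and -0.24 in liver 1, while the last probe, A_53_P137672, read -0.64 in HCC 3 and 0.24 in liver 2. The latter was the member probe with the largest group difference, -0.41 ± 0.16 (SE), in limma (adjusted p = 0.590).

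Tcf7l2, a Tcf factor of liver and gut among other tissues, lies on Chr19 with probes from chr19:55901084-55956971. Its level was 0.09, -0.18, -0.09, -0.15 and -0.54 in HCC 1 to 5, and -0.28, -0.12 and -0.03 in livers 1 to 3. HCC 5 carried a loss, HCC 1 lay above every liver and the other tumours lay among them. The means differed by -0.03 (HCC -0.17 ± 0.23, SD, n = 5, liver -0.14 ± 0.12, SD, n = 3, exact permutation p = 0.875, adjusted p = 0.978), by 0.20 within scan day 1 and by -0.24 within scan day 2.

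One Tcf7l2 probe set much of this spread. A_53_P158307 read -0.21, -0.29, 0.11, -0.74 and -0.98 in HCC 1 to 5 and -0.59, -0.24 and 0.0021 in the livers, and it lay 0.3 or more from the mean of its 4 nearest probes in 5 of 8 tissues, the most of any member probe. In HCC 4 (-0.83 and -0.64) and liver 1 (-0.49 and -0.68) both dye orientations were low. In HCC 5 they read -0.25 and -1.71, and in HCC 1 they read -0.74 and 0.32. Without this probe the level of Tcf7l2 was -0.31 in HCC 5, still a loss, 0.15 in HCC 4 and -0.12 in liver 1, and the Chr19 median was -0.32, -0.02 and -0.10 in these tissues.

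**Figure D2:**
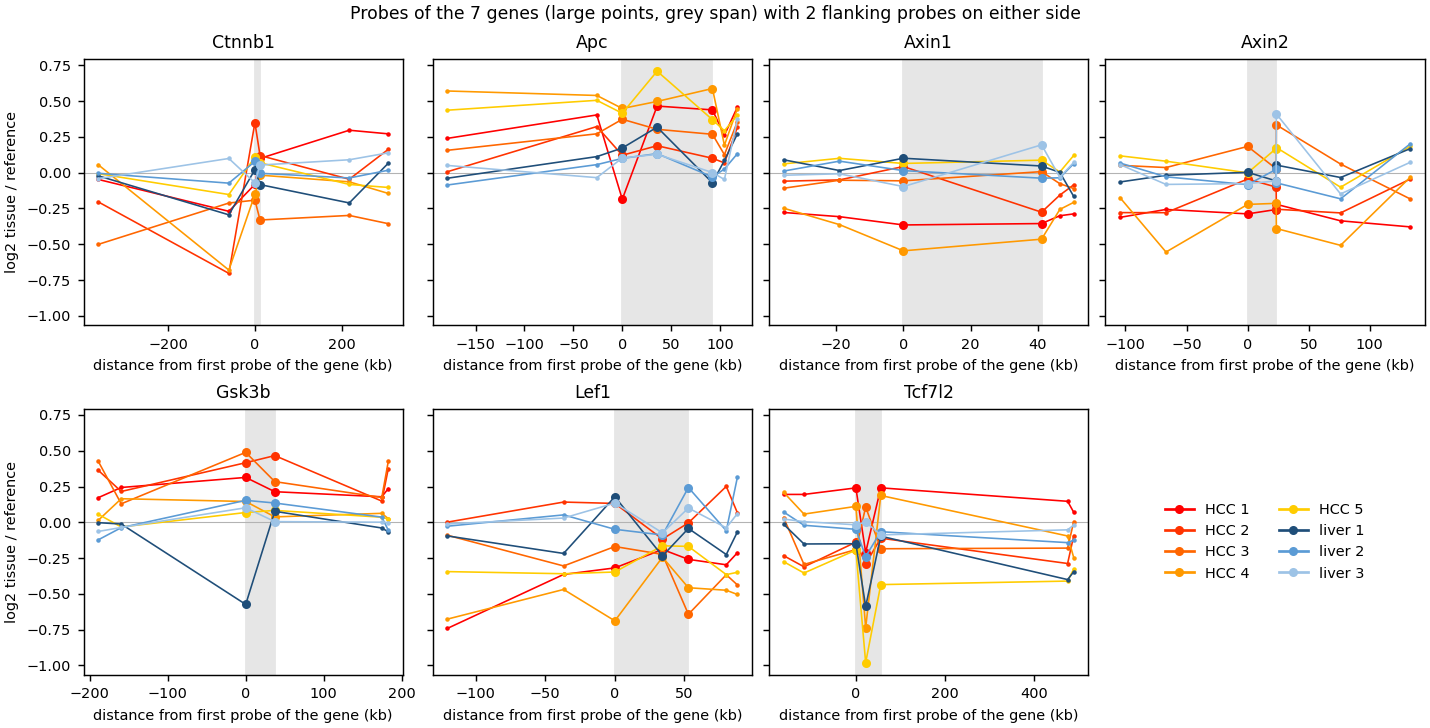
Level (log2 tissue over reference, vertical axis) of every probe of the 7 genes and of the 2 probes on either side, against distance in kb from the first probe of the gene (horizontal axis). Lines are tissues, warm colours HCC and blue colours livers, large points are probes of the gene and the grey span covers them. Sharp dips inside a gene include the Gsk3b probe of liver 1 (-0.57), the Apc probe of HCC 1 (-0.19), the last Lef1 probe of HCC 3 (-0.64) and the middle Tcf7l2 probe.

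The probes next to each gene gave the same picture as the chromosome. The 2 probes on either side read higher in HCC than in liver by 0.24 at Apc and by 0.21 at Gsk3b, and lower by -0.27 at Lef1, -0.14 at Axin1, -0.16 at Axin2, -0.13 at Ctnnb1 and -0.01 at Tcf7l2. Those named here lay in Srp19 and Reep5 beside Apc, in Nr1i2 beside Gsk3b, in Hadh beside Lef1, in Tmem8, Arhgdig and Rgs11 beside Axin1, in Ccdc46 beside Axin2 and in Habp2 beside Tcf7l2, and other flanking probes carried clone names (BC100520 and BC065094 at Ctnnb1, AK051754 at Apc, AK040169 and AK029296 at Lef1, AK019762 at Tcf7l2) or no gene name. The median distance between a member level and the mean of its 4 flanking probes was between 0.05 and 0.09 for the 7 genes. The largest such distance was 0.43 for Ctnnb1 in HCC 2, where the nearest probe before Ctnnb1, which has no gene name, read -0.70, and the same probe read -0.68 in HCC 4.

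Over the 18 probes of the members, limma called none at an adjusted p of 0.05, as it called 0.0% of all 40720 autosomal probes tested. At an unadjusted p under 0.05, 3 member probes passed, 1 each of Apc, Gsk3b and Lef1, beside 7.40% of all probes. The exact permutation test per probe also called none, but it could hardly call any. Its smallest unadjusted p is 0.0179, which falls under 0.05 after adjustment only if a large share of all probes reach it. Relative to the chromosome median limma called 0.0% of all probes, no member probe had an unadjusted p under 0.05, and 1.53% of all probes did.

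Each tumour was then compared with the liver of its own mouse. For Apc the difference was 0.10, -0.0028, 0.25, 0.43 and 0.42 in HCC 1 to 5, and for Gsk3b it was 0.51, 0.69, 0.24, 0.04 and 0.02. For Lef1 it was -0.22, 0.04, -0.38, -0.52 and -0.28, and for Axin1 it was -0.43, -0.19, -0.01, -0.55 and 0.03. Gsk3b lay above the own liver in all 5 tumours, Apc in 4, and Lef1 and Axin1 below it in 4 each. The medians of Chr16 and Chr18 lay above the own liver in 5 tumours, and those of Chr3 and Chr17 below it in 4. The share of all gene names with such counts was not worked out. The Gsk3b values of HCC 1 and HCC 2 used liver 1 with its low probe, and relative to Chr16 they were 0.28 and 0.30, the largest of any member. Relative to Chr16 those of HCC 3 to HCC 5 were -0.035, -0.0151 and -0.0573.

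For Axin2 the difference from the own liver was -0.25, -0.13, 0.23, -0.37 and 0.02 in HCC 1 to 5, for Ctnnb1 it was 0.04, 0.27, -0.30, -0.08 and 0.10, and for Tcf7l2 it was 0.37, 0.10, 0.03, -0.11 and -0.50. These 3 genes lay on both sides of 0. In 19 of the 35 gene and tumour pairs the chromosome differed from the own liver by 0.2 or more, and in all 19 the gene differed in the same direction. Over all 35 pairs 31 had the same direction and 4 had opposite directions, the latter with chromosome differences of at most 0.0977. Over the 35 pairs the gene and the chromosome differences had a Pearson r of 0.922, given as a description, since both values of a pair share arrays and pairs share livers.

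**Figure D3:**
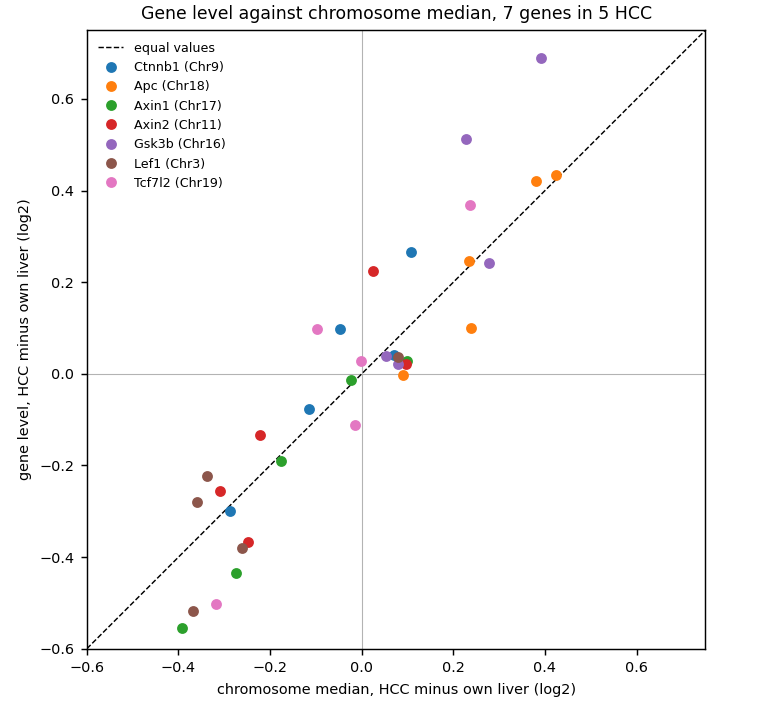
Gene level of HCC minus own liver (vertical axis, log2) against the same difference of the chromosome median (horizontal axis, log2), 5 points per gene, 1 per HCC. The points follow the dashed line of equal values, and the 2 highest, Gsk3b in HCC 2 (0.69) and HCC 1 (0.51), lie above it.

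Which genes passed the cut-off differed between tumours. HCC 1 had a loss of Axin1, HCC 2 a gain of Gsk3b, HCC 3 gains of Apc and Gsk3b with a loss of Lef1, HCC 4 a gain of Apc with losses of Axin1 and Lef1, and HCC 5 a gain of Apc with a loss of Tcf7l2. Of all gene names, between 13.5% (HCC 3) and 26.3% (HCC 5) were gains in a tumour, and between 11.8% (HCC 2) and 28.2% (HCC 5) losses. Each call of HCC 3 fell short of the cut-off without 1 probe (Apc 0.29, Gsk3b 0.28, Lef1 -0.20), and those of the other tumours held. No member carried losses in 3 or more tumours, which 8.46% of all gene names did. HCC 1 and HCC 2 of mouse 3151 shared no call, and HCC 4 and HCC 5 of mouse 4033 shared the gain of Apc. Several calls changed with centring on the mode, which moved all levels by -0.28 in HCC 5 and -0.15 in HCC 1 and by less than 0.1 elsewhere. Of the 5 gains 4 were kept, Apc in HCC 5 (0.22) lost its gain, and Ctnnb1 in HCC 2 (0.32) became one. Of the 5 losses 4 were kept and Lef1 in HCC 3 (-0.28) was not. The losses added were Lef1 in HCC 1 (-0.41) and HCC 5 (-0.51) and Axin2 in HCC 1 (-0.41) and HCC 4 (-0.35). Lef1 then carried losses in 3 tumours, as did 14.8% of all gene names in at least 3, and HCC 4 and HCC 5 shared a loss of Lef1 in place of the gain of Apc.

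Relative to the chromosome, the 56 member values had an SD of 0.09 and a median size of 0.05, and those of the 10264 gene names with 2 or 3 probes had an SD of 0.15 and a median size of 0.07. Values at or past 0.3 on this scale made up 8.76% of the HCC values and 3.81% of the liver values of all gene names and none of the members' values. All gene names include those with 1 probe, here and in the shares of gains and losses above, while each member has 2 or 3. Over all gene names the SD was 0.18. No member had tumours that all lay above or all below the livers on this scale, and 2.02% of all gene names did. The relative differences between groups were 0.05 for Ctnnb1, -0.03 for Apc, -0.07 for Axin1, 0.04 for Axin2, 0.06 for Gsk3b, -0.03 for Lef1 and 0.01 for Tcf7l2, with exact permutation p between 0.250 and 0.804.

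In level above or below the own liver, the tumours of the female p53(f/+) mouse and those of the 2 male p53(f/f) mice differed by 0.50 in Gsk3b (0.60 against 0.10), by 0.43 in Tcf7l2 (0.23 against -0.20), by -0.32 in Apc (0.05 against 0.37) and by 0.30 in Lef1 (-0.09 against -0.39). For Gsk3b, Tcf7l2, Apc and Lef1 the tumours of the female mouse all lay on 1 side of the others. The exact permutation test here treats tumours of 1 mouse as separate samples, though HCC 1 and HCC 2 share mouse 3151 and the subtracted liver 1. The exact permutation p was 0.1 for Gsk3b, Apc and Lef1, the smallest that the 10 splits allow. For Tcf7l2 it was 0.2, and for the other 3 genes it lay between 0.3 and 0.6. For each of these genes the separation ended when a certain probe was left out, and held when any other was. Without A_53_P130011 the Gsk3b difference was 0.18 (exact permutation p = 0.2) and HCC 1 (0.14) lay below HCC 3 (0.15). Without A_53_P152535 the Apc difference was -0.22 (exact permutation p = 0.3). The Lef1 difference was 0.21 without A_53_P137672 and the Tcf7l2 difference 0.24 without A_53_P158307 (exact permutation p = 0.4 for each). With any other probe left out, the exact permutation p stayed 0.1 for Gsk3b and Apc and was 0.2 for Lef1 and Tcf7l2. Sex, Trp53 genotype, age and mouse cannot be told apart in these 5 tumours. P-values after adjustment over the 7 genes were not computed because the genes were chosen with results known.

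Both dye orientations could be compared in 7 tissues. The median absolute difference between the orientations over the 18 member probes was between 0.13 and 0.25, against 0.15 to 0.27 over all autosomal probes of the same tissues. The largest was the middle Tcf7l2 probe in HCC 5 (1.46), followed by the first Gsk3b probe in liver 1 (1.20).

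**Figure D4:**
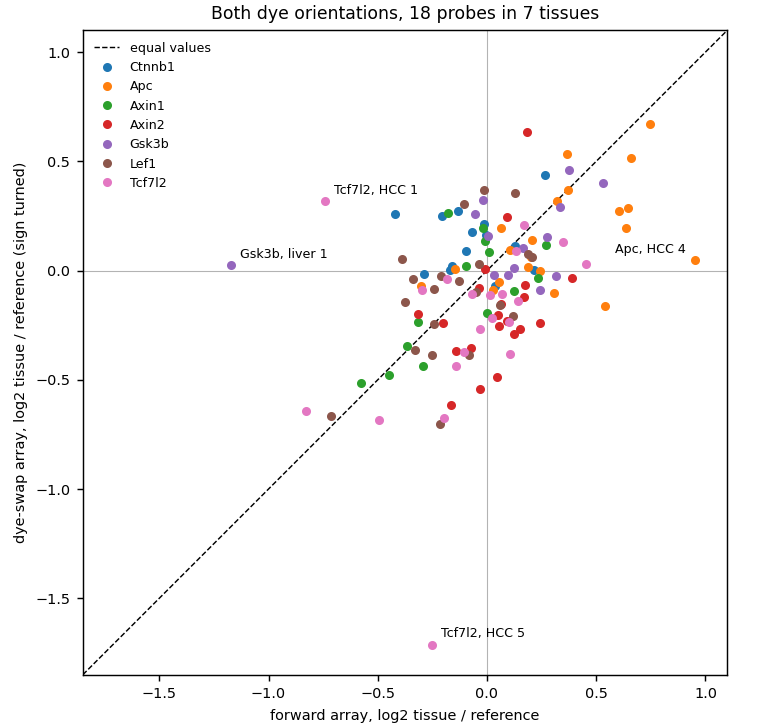
Level of each of the 18 member probes on the forward array (horizontal axis) and the dye-swap array with its sign turned (vertical axis), both log2 tissue over reference, 7 tissues. The dashed line marks equal values, and the labelled points farthest from it include Tcf7l2 in HCC 5 (-0.25 and -1.71) and Gsk3b in liver 1 (-1.17 and 0.02).

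The genes whose level most resembled that of a member across the 8 tissues were described by Pearson r, among 10896 gene names with at least 2 probes and with no test. On the member's own chromosome the most alike were Gcm1 for Ctnnb1 (0.976), Grpel2 for Apc (0.982), Bnip1 for Axin1 (0.990), Sp6 for Axin2 (0.979), Gm609 for Gsk3b (0.986), Metap1 for Lef1 (0.956) and Fads3 for Tcf7l2 (0.962). On other chromosomes they were AK122515 (0.919), Bop1 (0.980), Actr2 (0.995), Telo2 (0.990), Ppp2r5a (0.870), Tek (0.991) and Ahi1 (0.988) in the same order. Of the 50 names most like each member, 50 lay on its own chromosome for Gsk3b, 48 for Ctnnb1, 34 for Lef1, 33 for Axin2, 29 for Axin1 and 23 each for Apc and Tcf7l2, while the own chromosome holds between 3.00% and 7.38% of the names compared. Actr2, the best match of Axin1, lies on Chr11 with Axin2, and Telo2, the best match of Axin2, lies on Chr17 with Axin1.

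A further 101 genes of the pathway were listed by role, of which 91 had an autosomal probe. Of these 91, 8 (8.79%) lay above all livers in all tumours, against 6.06% of all gene names, and 5 (5.49%) lay below, against 3.72%. Gains made up 16.7% of their gene and tumour pairs and losses 18.5%, against the 18.1% and 18.7% of all gene names, and the median difference between HCC and liver was -0.06, against -0.01 for all gene names. None of their 171 probes passed limma. The smallest adjusted p of the exact permutation test over all gene names was 0.432, so no difference named below passed it.

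The 7 listed genes on Chr15 were 7 of the 10 with the largest differences. The Chr15 median differed by 0.47, from 0.04 in liver to 0.51 in HCC. The ligand Wnt1 differed by 0.71 (1 probe, 0.56 ± 0.13 against -0.15 ± 0.25), the ligand Wnt7b by 0.58, the receptor Fzd6 by 0.38, the casein kinase Csnk1e by 0.48 and the coactivator Ep300 by 0.44, and each of these 5 lay above every liver in all 5 tumours. The ligands Wnt10b (0.46) and Rspo2 (0.33) overlapped the livers. Relative to Chr15 the differences of these 7 genes lay between -0.14 for Rspo2 and 0.24 for Wnt1. The Wnt1 value of liver 1 was -0.43, and that of the other livers 0.03 and -0.04.

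The ligands Wnt7a (0.47), Wnt2b (-0.34) and Wnt8b (-0.32) completed the 10 largest, and all 3 overlapped the livers. The other genes with all tumours above all livers were the Frizzled receptor Fzd3 (0.19), the Dishevelled gene Dvl3 (0.26), which lies on Chr16 with Gsk3b, and Tnks (0.30), whose tankyrase product marks Axin for degradation. Below all livers were Fzd4 (-0.29), the Dickkopf family gene Dkk3 (-0.15), Pygo2 (-0.30), a nuclear cofactor of beta-catenin on Chr3 with Lef1, Ctnnbip1 (-0.30), an inhibitor of the beta-catenin and Tcf interaction, and the corepressor Tle3 (-0.28). By role, 14 of 23 ligands and 10 of 15 receptors had a higher mean in HCC, while 12 of 16 secreted or membrane inhibitors, 11 of 13 nuclear factors and 7 of 9 liver targets had a lower mean. Cytoplasmic transducers (4 higher, 5 lower) and other destruction complex genes (3 and 3) were split, and 48.6% of all gene names had a higher mean in HCC. The roles do not spread evenly over chromosomes, and these counts carry no test. All 15 listed genes on Chr11 had a lower mean in HCC and all 7 on Chr15 a higher one. Relative to the chromosome, the median difference by role lay between -0.05 (nuclear factors) and 0.04 (cytoplasmic transducers). It was -0.0043 for ligands, -0.02 for receptors and 0.02 for secreted or membrane inhibitors.

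**Figure D5:**
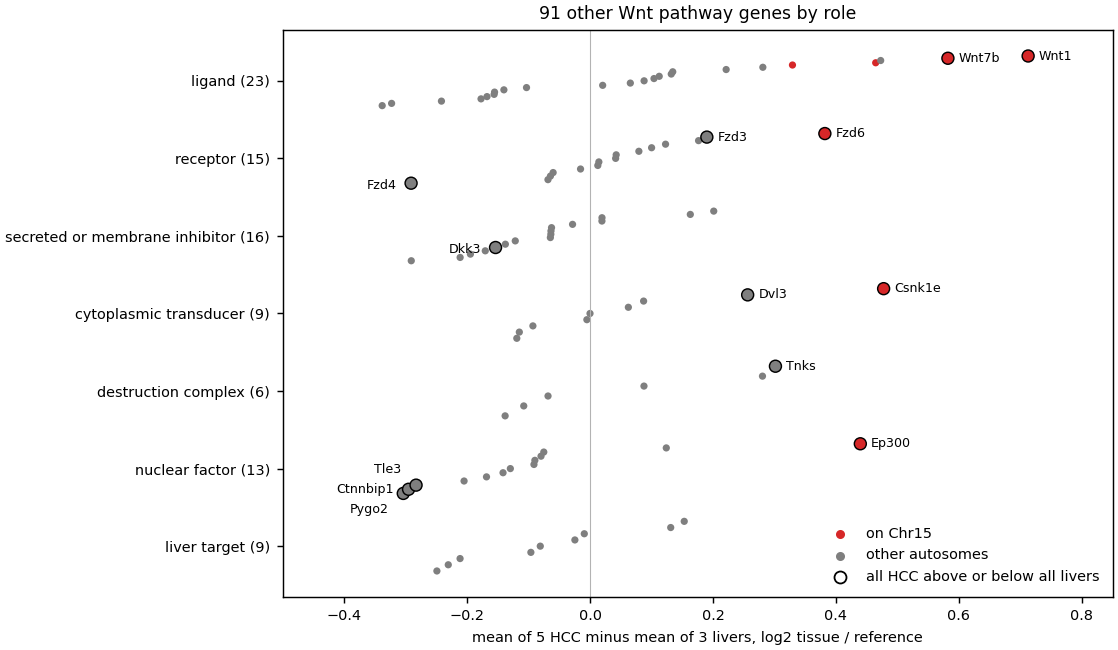
Difference in copy-number level (mean of 5 HCC minus mean of 3 livers, log2, horizontal axis) of 91 other Wnt pathway genes, by role (vertical axis, with the number of genes). Red points lie on Chr15, and named points with a black edge have all tumours above or all below the livers. The red points are the 7 genes on Chr15, with differences between 0.33 and 0.71.

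Relative to its chromosome and its own liver, the largest value in any tumour was 0.73 for Wnt7a in HCC 2, followed by 0.70 for Wnt1 in HCC 2 and -0.57 for Wnt8b in HCC 2. Tle3 (-0.54 in HCC 1), Sfrp2 (0.52 in HCC 2), Glul, the pericentral glutamine synthetase and a liver target of the pathway (-0.52 in HCC 2), Fzd8 (-0.51 in HCC 1), Tbx3 (-0.49 in HCC 1), Rspo3 (0.49 in HCC 4) and Tnks (0.49 in HCC 3) completed the 10 largest. Wnt1, Sfrp2, Glul and Fzd8 have 1 probe each. The share of all gene names with values of such size was not worked out. For Wnt7a and Wnt1 the value of HCC 2 relative to its chromosome was 0.34 and 0.25, and that of liver 1 was -0.39 and -0.44, so that the value of the liver was the larger part of each difference.

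Wnt8b, a ligand of the nervous system, stood apart in mouse 3151. Its first probe, A_53_P122423, read -2.45 in HCC 1, -3.23 in HCC 2 and -2.24 in liver 1, and between -0.45 and 0.27 in the 5 tissues of the other mice. Both dye orientations were low in all 3 tissues of mouse 3151, with forward values of -3.51, -4.46 and -3.01 and dye-swap values of -1.39, -2.01 and -1.46. The second Wnt8b probe, at chr19:44586728-44586787, read -0.19, -0.43 and -0.08 there. A probe of Scd4 at chr19:44419920-44419979, chosen after its values were seen, was low in the same tissues (-2.43, -2.30 and -1.60) and between -0.37 and 0.09 in the others, and the Scd1 probe between them read -0.21, -0.20 and 0.10 in those 3 tissues. The low values were shared by the tumours and the unaffected liver of the mouse, so a low reading as such did not set HCC apart from liver. Its size differed between the tissues, with HCC 2 (-3.23) below liver 1 (-2.24) at the first Wnt8b probe, and this difference was not tested.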

How the data were processed

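DNA of 5 HCC and 3 unaffected livers was hybridised with reference DNA on 15 Agilent 44K mouse CGH arrays, in both dye orientations except HCC 3. Per the file headers, the deposited processed signal intensity values came from Feature Extraction 9.1.3.1, background-subtracted and dye-normalised by the authors' software by a method given only as a code. The deposited series matrix holds the log10 ratio of tissue over reference of the same arrays, with the sign of dye-swap arrays already turned, and served as an alternative. Among 45220 spots, 2200 controls and spots with outlier marks were left out, log2 of tissue over reference was centred on the median of the autosomal probes of each array, the sign of dye-swap arrays was turned, and orientations were averaged. The number of arrays limits the precision. A gene level is the mean of its probes. Group differences were tested over all autosomal probes with limma 3.58.1 in R 4.3.3 and for gene levels by a two-sided exact permutation test, both with Benjamini-Hochberg adjustment at 0.05. Mouse was tried as a block because tissues come from the same animals, and deviations of tumour and own liver correlated with r between 0.13 and 0.29, against -0.21 to 0.09 with other livers. The members and the pathway list were chosen with earlier results of these data known. Named genes are all members, the genes of their flanking probes (1 is not reported here), the listed genes whose groups did not overlap, the 10 largest by group difference and the 10 largest relative to chromosome and own liver, and the names most like each member. Alternatives covered background correction, centring, dye orientation, flags, batches and left-out tissues. Of the listed genes 2 matched by an older symbol, 3 were not autosomal and 7 had no probe. The code was tested on simulated data.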

Additional observations from a re-analysis of the deposited data

How the results depend on the processing

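No limma call among autosomal probes was made in any setting except within scan day 1, where 3 HCC and 1 liver gave 1 call, no member probe. With mouse as a replicate block the difference was 0.2411 for Apc, 0.2913 for Gsk3b, -0.2907 for Lef1 and -0.1962 for Axin1, and the block changed no call; its smallest possible exact permutation p was 0.0556. Member gains numbered 8 on forward and 3 on dye-swap arrays, 8 at a threshold of 0.2 and 1 at 0.5, and 3 to 5 with an HCC left out (3 without HCC 3). Losses numbered 8 with centring on the mode, 10 at 0.2 and 2 at 0.5, and 3 to 5 with an HCC left out (3 without HCC 4). Among these settings the share over all gene names was worked out only for centring on the mode, so the other counts have no background beside them. The dye-swap count covers fewer gene and tumour pairs, since HCC 3 has no dye-swap array. The directions of the levels of Apc, Gsk3b and Lef1 held in all alternatives. On forward arrays alone the unadjusted exact permutation p was 0.0357 for Apc (0.3338), Axin1 (-0.3162) and Gsk3b (0.4173) and 0.0179 for Lef1 (-0.2946). On dye-swap arrays alone, without HCC 3, the exact permutation p was 0.343 for Apc (0.1364) and 0.4 for Axin1 (-0.1604). There it was 0.6 for Gsk3b (0.0789) and 0.143 for Lef1 (-0.23). With the 4 flanking probes in the median the exact permutation p was 0.0357 for Apc (0.2689) and Gsk3b (0.2183). The exact permutation p was also below 0.05 for Lef1 without HCC 2 (-0.3413, which leaves no overlap and so gives the smallest p of 35 splits), for Apc with 1 probe left out (0.3131) and for Axin1 relative to Chr17 on forward arrays (-0.1561), and in no other alternative for a member.

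Some differences turned sign, and the cause was not tested. For the level of Ctnnb1 it became 0.0523 with normexp, 0.0025 with centring on all probes, 0.0445 on forward and 0.0342 on dye-swap arrays and 0.0841 within scan day 1, and lay between -0.0612 and 0.0628 with a tissue left out (above 0 without HCC 3, HCC 4 or liver 2). For Tcf7l2 it became 0.023 with normexp, 0.1998 within scan day 1 and 0.0304 with 1 probe left out (an alternative chosen after seeing the data, as are the others that leave out a probe), and lay between -0.0962 and 0.0623 with a tissue left out (above 0 without HCC 5 or liver 3). Within scan day 2, Axin1 became 0.0072 and Axin2 0.1239. Relative to the chromosome, Apc became 0.0572 on forward arrays, 0.0248 with slide as a block, 0.0271 within scan day 2 and 0.0391 with 1 probe left out. Axin1 became 0.0478 on dye-swap arrays. Gsk3b became -0.099 on dye-swap arrays, -0.0462 within scan day 2 and -0.0612 with 1 probe left out, and lay between -0.0522 (without liver 1) and 0.1434. Lef1 became 0.0275 on dye-swap arrays, 0.0039 within scan day 1 and 0.0398 with 1 probe left out. Tcf7l2 became -0.0428 on forward arrays, -0.0337 with slide as a block, -0.0768 within scan day 2, -0.0026 relative to probes within 1 Mb and -0.0185 with 1 probe left out, and lay between -0.0234 and 0.0508 with a tissue left out (below 0 without HCC 2 or liver 1). HCC 3 dropped out of the dye-swap arrays. Within a scan day the exact permutation test of a gene level could give no p under 0.25.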
